A study of Mus musculus with 12 samples.

Results

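Insr, Irs1, Irs2, Pik3r1, Pik3ca, Akt1, Akt2, Foxo1 and Foxo3 encode the receptor, the substrates, the kinases and the transcription factors of hepatic insulin signalling. They were picked by gene symbol as a pathway, with earlier results of these data known, and are 9 of the 54232 Ensembl genes counted. Whole liver polyA RNA was sequenced from male C57BL6/J mice of the intragastric alcohol-associated steatohepatitis (ASH) model, with the age label 8-week and 8 weeks of diet. The 5 pair-fed (PF) mice received an isocaloric high-fat liquid diet. The 7 alcohol-fed (AF) mice received the high-fat liquid diet with ethanol at 27 g/kg/day and a weekly binge of 5 g/kg. Per the study's methods, the ASH regimen began with a lead-in on solid food rich in cholesterol and saturated fat, or on regular chow. The rich solid food was also part of the intragastric phase. Which solid food the PF mice received is not spelled out, so that ethanol and a difference in solid diet cannot be told apart. The livers were taken the day after the final binge, so that the AF values come from chronic feeding and a recent binge together. No mouse carried a transgene, and each library came from 1 mouse.

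Insulin binding switches on the receptor tyrosine kinase Insr, which phosphorylates the docking proteins Irs1 and Irs2. These recruit phosphoinositide 3-kinase (PI3K), a dimer of a regulatory subunit such as p85 alpha (Pik3r1) and a catalytic subunit such as p110 alpha (Pik3ca), and the lipid it makes activates the AKT kinases. In the liver, AKT phosphorylates Foxo1 and Foxo3 and sends them out of the nucleus, which lowers genes of glucose production, and it raises genes of fat synthesis through SREBP-1c. These are steps of phosphorylation and location, and the values below are mRNA levels only.

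FOXO proteins bind DNA at short elements, GTAAACA and the variant CAAAACA known from insulin response sequences. Both were searched on both strands of RefSeq promoter windows of 300 bases (250 before to 50 after a gene's start, GRCm38.p6). Windows of 8 of the 9 members were matched, and 3 of these genes held either element: Irs1, Irs2 and Akt1. Of all 32851 windows, 3.65% held GTAAACA, 6.28% held CAAAACA and 9.63% held either. These shares are per window, while the 8 genes have 13 windows between them, so that the count of genes and the shares are in different units and are not compared. The first windows of these 3 members are shown with that of Igfbp1, a classical FOXO target of liver, because they are the members in which these letters were found. All are written 5′ to 3′ on the gene's strand, with the elements in capitals. A TGTTTTG or TGTTTAC is the element on the other strand.
Irs1, chr1:82291390-82291689, minus strand: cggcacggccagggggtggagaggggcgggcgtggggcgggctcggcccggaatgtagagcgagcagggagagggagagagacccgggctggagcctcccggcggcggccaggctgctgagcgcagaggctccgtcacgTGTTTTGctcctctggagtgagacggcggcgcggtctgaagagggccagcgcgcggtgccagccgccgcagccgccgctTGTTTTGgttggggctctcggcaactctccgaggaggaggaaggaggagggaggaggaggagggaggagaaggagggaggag
Irs2, chr8:11008880-11009179, minus strand: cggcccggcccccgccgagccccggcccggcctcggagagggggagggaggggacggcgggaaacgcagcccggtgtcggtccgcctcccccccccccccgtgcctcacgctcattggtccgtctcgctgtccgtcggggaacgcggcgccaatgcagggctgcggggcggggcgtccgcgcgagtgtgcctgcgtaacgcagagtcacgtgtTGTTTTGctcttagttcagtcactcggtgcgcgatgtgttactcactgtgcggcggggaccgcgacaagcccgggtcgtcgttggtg
Akt1, chr12:112674835-112675134, minus strand: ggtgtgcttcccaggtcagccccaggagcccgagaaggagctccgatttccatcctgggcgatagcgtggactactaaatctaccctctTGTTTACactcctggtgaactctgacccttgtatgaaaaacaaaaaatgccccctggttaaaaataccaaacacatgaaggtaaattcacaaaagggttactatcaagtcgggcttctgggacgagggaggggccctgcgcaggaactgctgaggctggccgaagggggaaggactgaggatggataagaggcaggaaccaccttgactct
Igfbp1, chr11:7197537-7197836, plus strand: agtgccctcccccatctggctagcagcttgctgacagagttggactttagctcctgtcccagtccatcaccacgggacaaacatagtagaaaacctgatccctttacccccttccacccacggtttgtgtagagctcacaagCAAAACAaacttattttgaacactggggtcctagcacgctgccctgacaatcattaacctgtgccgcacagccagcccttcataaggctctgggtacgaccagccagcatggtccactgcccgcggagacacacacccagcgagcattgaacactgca
In Irs1 the 2 elements begin 111 and 32 bases before the RefSeq start, in Irs2 the element begins 37 bases before it, in Akt1 161 bases before it, and in Igfbp1 108 bases before it. Akt1 has a second window (chr12:112674227-112674526), with 79.7% GC against 52.3% in the one shown, and it held neither element. A match is a description of the letters in these windows and not of binding. Of the 16 matched genes on a list of 18 FOXO targets, 5 held either element. Of the 9 matched genes on a list of 12 genes that insulin raises in liver, 2 did. Whether these shares differ was not tested.

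All 9 members passed the filter on low counts, and 6 of them changed in AF livers by edgeR's quasi-likelihood test with Benjamini-Hochberg adjustment over 14168 genes. Insr, Irs2, Pik3r1, Foxo1 and Foxo3 fell and Akt1 rose, while Irs1, Pik3ca and Akt2 did not pass the threshold of 0.05. The comparison was broad: 39.8% of all tested genes passed, with 22.0% higher and 17.8% lower in AF. The median log2 fold change of the 9 members was -0.50, against 0.039 over all tested genes. In 3 of the 9 members, Insr, Pik3r1 and Foxo3, all AF livers lay below all PF livers, which held for 9.49% of tested genes, while the groups did not overlap in either direction for 17.7%. In bulk tissue, fewer cells of a type and less RNA per cell cannot be told apart.

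**Figure D1:**
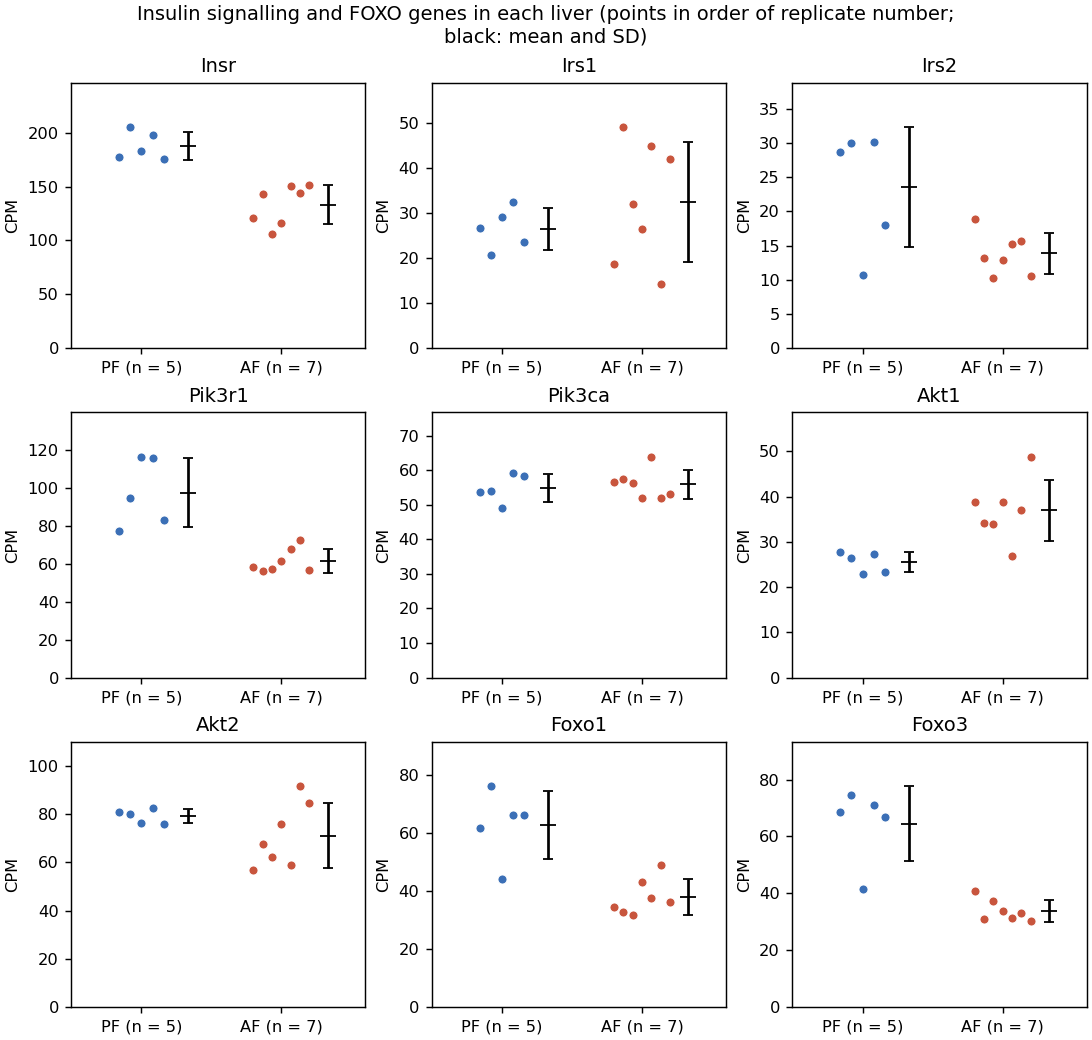
Read counts per 1000000 (CPM, scaled with TMM factors) of the 9 members in each liver, 1 panel per gene on a linear axis from 0, with points in order of replicate number and the mean and SD in black for PF (n = 5) and AF (n = 7). The AF points of Insr, Pik3r1 and Foxo3 sit below every PF point, and Akt1 is above the PF range in 6 of the 7 AF livers.

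Insr, the insulin receptor gene (ENSMUSG00000005534, GRCm38 chr8:3122061-3279617), fell to 0.708 of its PF level. Its CPM (read counts per 1000000 of the TMM-scaled library) were 178, 205, 183, 198 and 176 in PF 1 to 5. In AF livers the lowest was 106, the median 143 and the highest 151. The ranges of the groups did not overlap, and the PF livers stood close together with a coefficient of variation (CV) of 6.84%, against 13.7% in AF. On the log2 scale Insr fell by 0.50 (SE 0.106) with an edgeR adjusted p = 0.00298, and with plain library totals it was at -0.15 (edgeR adjusted p = 0.204). Mean expression was 188 ± 12.9 CPM in PF (SD, n = 5) and 133 ± 18.2 CPM in AF (SD, n = 7).

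Of the substrates, Irs2 fell and Irs1 was the most variable member in AF livers. Irs2 (ENSMUSG00000038894, chr8:10984681-11008458) is the substrate whose gene FOXO factors are known to induce when insulin is low. Its CPM were 28.7, 30.1, 10.7, 30.1 and 18.0 in PF 1 to 5. In AF livers they ran from 10.3 through a median of 13.2 to 18.9. The groups overlapped, since PF 3 lay within the AF range and PF 5 below the highest AF liver, and 2 of 7 AF livers lay below the lowest PF liver. The log2 fold change of Irs2 was -0.76 (SE 0.237, edgeR adjusted p = 0.0216), and it no longer passed when PF 1, PF 2 or PF 4 was left out, with edgeR adjusted p = 0.0532, 0.0616 and 0.0602, or with plain library totals (-0.38, edgeR adjusted p = 0.235). For Irs1 (ENSMUSG00000055980, chr1:82233101-82291416) the PF values were 26.5, 20.6, 29.2, 32.3 and 23.6 CPM. Its AF values spread from 14.3 through a median of 31.9 to 48.9 CPM, a CV of 41.3% against 17.3% in PF. Irs1 thus lay above the PF range in 3 AF livers (AF 2, AF 5 and AF 7) and below it in another 2 (AF 1 and AF 6). Its log2 fold change of 0.29 had a 95% interval from -0.29 to 0.88 (edgeR adjusted p = 0.408), and it was 0.14 without AF 2 and 0.64 with library totals, past the threshold in neither.

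Of the PI3K subunits, the regulatory Pik3r1 fell and the catalytic Pik3ca did not pass the threshold. Pik3r1 (ENSMUSG00000041417, chr13:101680563-101768217) had 77.5, 94.7, 117, 116 and 83.2 CPM in PF 1 to 5. All 7 AF livers lay lower, from 56.0 through a median of 58.5 to 72.6 CPM. On the log2 scale Pik3r1 changed by -0.67 (SE 0.117) with an edgeR adjusted p = 0.000984, and with plain library totals it was at -0.31 (edgeR adjusted p = 0.076). Pik3ca (ENSMUSG00000027665, chr3:32397671-32468486) had 53.8, 54.1, 49.1, 59.1 and 58.5 CPM in PF 1 to 5. In AF it ran from 51.9 through a median of 56.3 to 64.0 CPM. Its CV was below 8% in both groups, at 7.36% in PF and 7.59% in AF, and 6 of the 7 AF livers lay within the PF range. Pik3ca had a log2 fold change of 0.026 with a 95% interval from -0.14 to 0.19 (edgeR adjusted p = 0.808).

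Akt1 rose while Akt2, the main AKT of hepatocytes in insulin action, did not pass the threshold. Akt1 (ENSMUSG00000001729, chr12:112653821-112674884) had 27.9, 26.4, 23.0, 27.3 and 23.4 CPM in PF 1 to 5. In AF livers its lowest value was 26.9, in AF 5, its median 37.1 and its highest 48.8. Except for AF 5, all AF livers lay above the highest PF liver. Akt1 thus had a log2 fold change of 0.53 (SE 0.124) with an edgeR adjusted p = 0.00507. In a fit offset for the base composition and length of each gene (GC and length offset) the value of Akt1, the member with the highest exonic GC content (59.7%) and the shortest exonic length (4098 bases), was 0.061 (edgeR adjusted p = 0.632). Akt2 (ENSMUSG00000004056, chr7:27591552-27640826) kept to 75.8 to 82.6 CPM in PF, with 81.0, 80.2, 76.5, 82.6 and 75.8 in PF 1 to 5. Its AF values ran from 56.8 through a median of 67.6 to 91.7 CPM, with 4 livers below and 2 above the PF range, and the CV was 18.8% against 3.71% in PF. The log2 fold change of Akt2 was -0.16 with a 95% interval from -0.41 to 0.10 (edgeR adjusted p = 0.317), and with the GC and length offset it was -0.48 (edgeR adjusted p = 0.0236).

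Both FOXO genes fell, and Foxo3 had the most negative value of the 9 members. Foxo1, the FOXO factor best known for driving hepatic glucose production (ENSMUSG00000044167, chr3:52268336-52353221), had 61.7, 76.3, 44.1, 66.1 and 66.2 CPM in PF 1 to 5. In AF livers it ran from 31.7 through a median of 36.4 to 49.0 CPM. Only AF 6, the highest, reached above the lowest PF liver. Its log2 fold change was -0.73 (SE 0.138) with an edgeR adjusted p = 0.00151. Foxo3 (ENSMUSG00000048756, chr10:42181841-42276755), a factor tied to stress resistance and autophagy, had 68.7, 74.4, 41.4, 71.2 and 66.7 CPM in PF 1 to 5. All AF livers lay below these, from 30.2 through a median of 32.9 to 40.6 CPM. Its highest AF liver, AF 1, was only just below PF 3, while the other PF livers lay well apart. The log2 fold change of Foxo3 was -0.93 (SE 0.132, edgeR adjusted p = 0.000254), and 5.75% of all tested genes had as low a value or a lower one.

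PF 3 lay well below the other PF livers in Irs2, Foxo1 and Foxo3. It was the lowest PF liver in 5 of the 9 members, but in Akt1 it was close to its neighbours. In Pik3ca it was at 49.1 CPM, with the next PF liver, PF 1, at 53.8 CPM. In Pik3r1 it was the highest, just ahead of PF 4. Without PF 3 the log2 fold changes were -1.06 for Foxo3, -0.84 for Foxo1, -0.95 for Irs2 and -0.60 for Pik3r1, and all 4 kept their side of the threshold. On deviations from the group means, the most alike of the 36 pairs of members were Irs2 and Foxo3, with Pearson's r 0.793 and Spearman's rho 0.685 over the 12 livers, and r was 0.723 over the 10 livers left without PF 3 and AF 3. These coefficients are given as a description with no p, since the pair was picked as the highest of 36. The AF livers were outside the PF range in 5 (AF 4) to 8 (AF 7) of the 9 members.

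**Figure D2:**
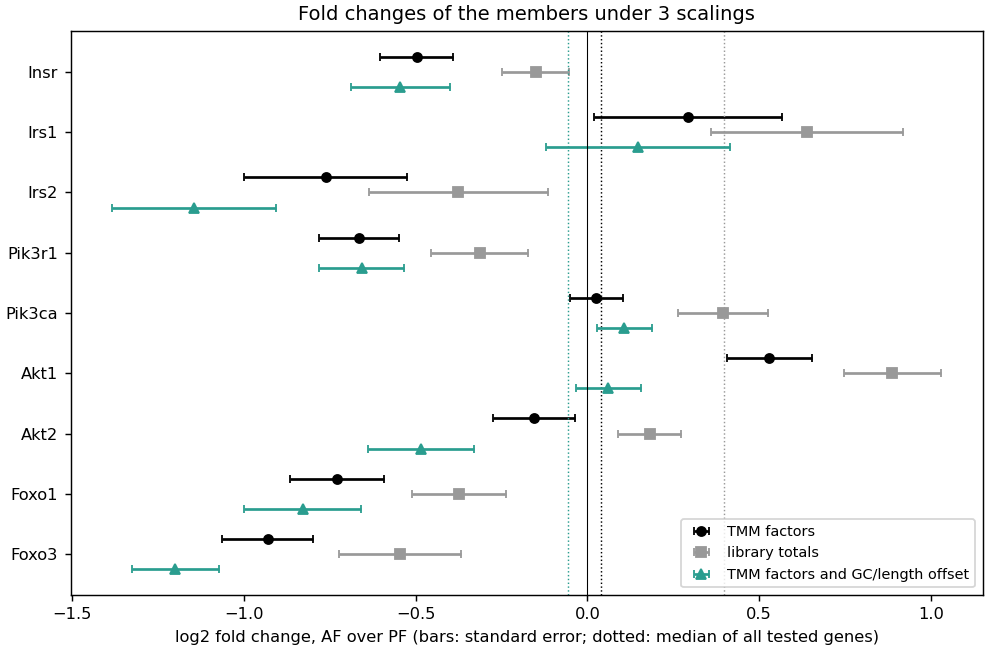
Log2 fold changes of AF over PF for the 9 members with their standard errors, fitted with TMM factors, with plain library totals and with the GC and length offset. Dotted lines mark the median of all tested genes in each fit, and the values with library totals are shifted to the right together with that median.

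Which members passed depended on the scaling of the libraries, because the TMM factors themselves differed between groups (0.832 to 0.901 in PF, 0.880 to 1.36 in AF, at 24129900 to 30578639 counts per library). With plain library totals the median of all tested genes moved from 0.039 to 0.40, and 4 members passed: Akt1 and Pik3ca higher, Foxo1 and Foxo3 lower, against 52.2% of all genes (45.6% higher and 6.62% lower). A change of library scaling shifts all genes nearly alike, which nearly fixes values measured from the median in advance and tests no stability. Measured from the median of each fit, the values of the members hardly moved between TMM and library totals. That of Foxo3 was -0.97 with TMM and -0.94 with library totals, that of Insr -0.54 and -0.55, and that of Akt1 0.49 in both. With the GC and length offset 6 members passed, all lower, against 39.9% of all genes (17.7% higher and 22.2% lower), and the values measured from the median did move, for Akt1 to 0.12, for Akt2 from -0.19 to -0.43, for Irs2 from -0.80 to -1.09 and for Foxo3 to -1.14.

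Ratios of read counts within a liver do not depend on that scaling, and 2 of the 4 ratios tested between members of 1 step differed between the groups. The Akt1 to Akt2 ratio was 0.344, 0.329, 0.300, 0.330 and 0.309 in PF 1 to 5. In AF it ran from 0.405 to 0.683, and the groups did not overlap. The mean was 0.323 ± 0.0176 in PF (SD, n = 5) and 0.526 ± 0.0892 in AF (SD, n = 7), a log2 difference of 0.69 with an exact two-sided permutation p of 0.00126 (0.00253 after adjustment over the 4 ratios). This is the smallest p that the 792 splits of 12 livers into 5 and 7 can give. The Pik3r1 to Pik3ca ratio went the other way, from 1.79 ± 0.395 in PF (SD, n = 5) to 1.105 ± 0.145 in AF (SD, n = 7). Every AF liver was at or below 1.40 and every PF liver at or above 1.42, with a log2 difference of -0.68 and the same exact permutation p of 0.00126.

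The other two ratios did not differ beyond the spread between livers. The Irs1 to Irs2 ratio spanned 0.685 to 2.73 over the PF livers and 0.914 to 3.96 over the AF livers, with a log2 difference of 0.88 and an exact permutation p of 0.112 (adjusted 0.150). It was above the PF range in 4 AF livers. The Foxo1 to Foxo3 ratio was 0.982 ± 0.0687 in PF (SD, n = 5) and 1.14 ± 0.231 in AF (SD, n = 7), a log2 difference of 0.19 with an exact permutation p of 0.222. With the GC and length offset, added for the ratios after seeing the data, the difference in Irs1 to Irs2 was 1.12 and that in Foxo1 to Foxo3 was 0.34, both with an adjusted exact permutation p of 0.0391.

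**Figure D3:**
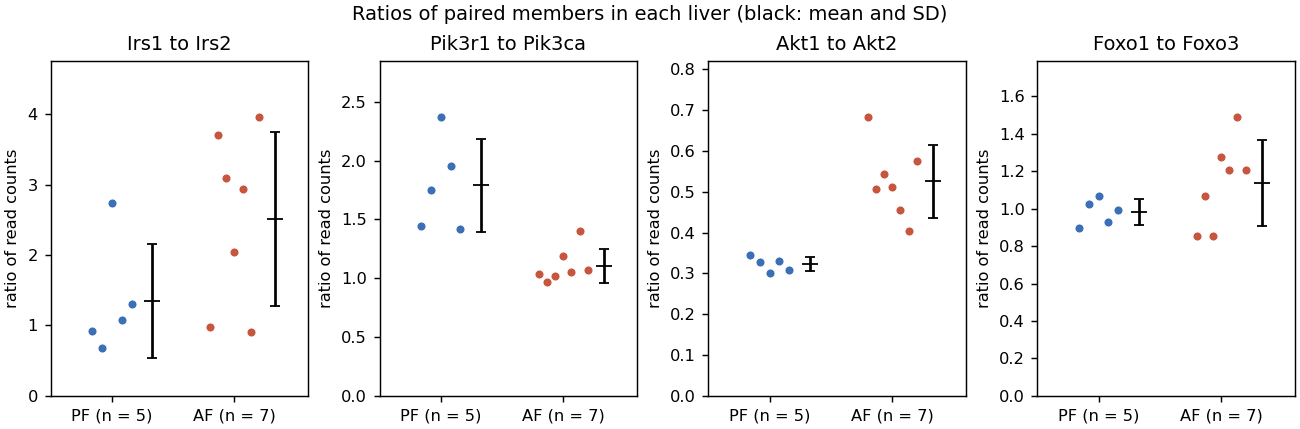
Ratios of read counts of paired members in each liver, 1 panel per ratio on a linear axis from 0, with the mean and SD in black for PF (n = 5) and AF (n = 7). The groups are apart for Akt1 to Akt2 (0.300 to 0.344 in PF, 0.405 to 0.683 in AF) and for Pik3r1 to Pik3ca, and overlap for the other two.

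Per kilobase of exon, Insr was the most abundant member in PF livers and the substrates the least. The PF order in CPM per kb was Insr (13.7 ± 0.935, SD, n = 5), Akt2 (11.1 ± 0.412), Pik3r1 (9.68 ± 1.79), Foxo3 (8.52 ± 1.75), Foxo1 (7.26 ± 1.36), Akt1 (6.24 ± 0.548), Pik3ca (6.04 ± 0.445), Irs2 (3.72 ± 1.39) and Irs1 (2.89 ± 0.501). Insr exceeded Akt2 in all 5 PF livers, Foxo3 exceeded Foxo1 in all 5 and Pik3ca exceeded Irs2 in all 5. Pik3r1 exceeded Foxo3 in only 2 of 5, and the other neighbours kept their order in 4 of 5, so that these pairs did not differ beyond their spread. In AF livers the order was Akt2 (9.98 ± 1.88, SD, n = 7), Insr (9.68 ± 1.33), Akt1 (9.01 ± 1.62), Pik3ca (6.15 ± 0.467), Pik3r1 (6.10 ± 0.627), Foxo3 (4.47 ± 0.504), Foxo1 (4.38 ± 0.712), Irs1 (3.54 ± 1.46) and Irs2 (2.19 ± 0.480). Only the step from Pik3r1 to Foxo3 held in all 7 AF livers. Akt1 moved from place 6 to place 3 and Pik3ca from place 7 to place 4. Pik3r1 moved from place 3 to place 5, Foxo3 from place 4 to place 6 and Foxo1 from place 5 to place 7. Insr and Akt2 exchanged places, as did Irs1 and Irs2. Exon length covers every exon of a gene in the GENCODE annotation, so that these levels are low for genes with long exons that liver does not use.

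**Figure D4:**
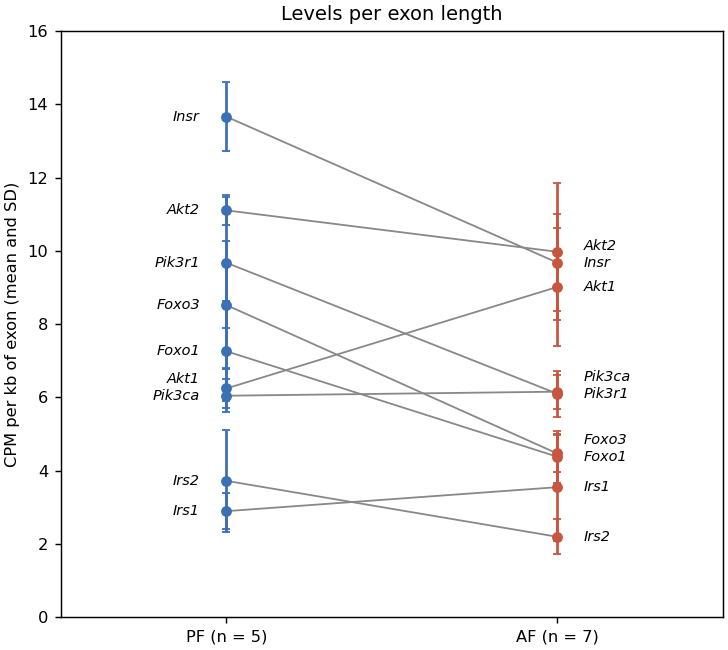
Mean level per kilobase of exon, in CPM per kb with SD bars, of each member in PF (n = 5) and AF (n = 7) livers, joined by a line per gene. Insr goes from 13.7 to 9.68 and Akt1 from 6.24 to 9.01, so that Akt2, Insr and Akt1 lie close together in AF.

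Reads of overlapping genes are uncertain here, because the strand setting of the counting is not given in the sources used here. In the GENCODE annotation Insr, Irs1, Irs2 and Foxo1 overlap genes on the opposite strand, and Pik3r1, Pik3ca, Akt1 and Foxo1 overlap small genes on their own strand. Akt2 and Foxo3 overlap none.

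Among 77 other genes of the pathway, 69 were tested, and 14 rose and 13 fell in AF. That is 39.1% of those tested, close to the 39.8% over all genes, and their median log2 fold change was -0.034. This split depended on the fit, with 34 higher and 5 lower under library totals, against 45.6% and 6.62% of all genes. With the GC and length offset it was 9 higher and 27 lower, against 17.7% and 22.2% of all genes.

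The ligand Igf1 and the receptor Erbb3 fell. Ins1 and Ins2, the insulin genes of the pancreas, had 0 counts in all 12 livers. Igf1, the growth factor that liver secretes, had 535 to 612 CPM in PF livers and 245 to 500 CPM in AF livers, and the groups did not overlap (log2 fold change -0.79, SE 0.156, edgeR adjusted p = 0.00201). Of the 2 receptors tested beside Insr, Erbb3 fell from 167 ± 35.0 CPM in PF (SD, n = 5) to 91.5 ± 12 in AF (SD, n = 7), with all AF livers below PF (log2 fold change -0.87, edgeR adjusted p = 0.000612). The other, Igf1r, the receptor of IGF-1, had 2.74 ± 0.736 CPM in PF (SD, n = 5) and 4.51 ± 1.86 in AF (SD, n = 7), with 5 AF livers above the PF range (log2 fold change 0.72, edgeR adjusted p = 0.0706). Of 2 genes of insulin clearance tested, 1 passed, 50% against 39.8% over all genes. Ceacam1, which promotes the uptake of insulin with its receptor, fell from 156 ± 4.85 CPM in PF (SD, n = 5) to 86.7 ± 13.3 in AF (SD, n = 7) with no overlap (log2 fold change -0.85, edgeR adjusted p = 0.000107). The other, Ide, the insulin-degrading enzyme, did not pass, with 147 to 261 CPM in PF livers and 177 to 318 CPM in AF livers.

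Adaptors (2 of 7 past the threshold, 28.6%) and other PI3K subunits (4 of 8, 50%) changed in both directions, against 39.8% over all genes. Of 7 adaptors, the docking protein gene Dok1 rose (log2 fold change 1.22, edgeR adjusted p = 0.00135) from a level of only 1.15 CPM in PF, and Sos1, which loads RAS with GTP, fell (-0.42, edgeR adjusted p = 0.00453) but was at -0.062 with library totals (edgeR adjusted p = 0.701). Of 8 other PI3K genes, Pik3cd, the p110 delta of blood cells, and Pik3r2, the p85 beta subunit, rose with log2 fold changes of 0.71 and 0.40 (edgeR adjusted p = 0.0339 and 0.0358). Pik3c2a and Pik3r4, of the class II and class III enzymes, fell with -0.55 and -0.22 (edgeR adjusted p = 0.0107 and 0.0401). The calls of Pik3cd, Pik3r2 and Pik3r4 were lost in most fits that left out 1 liver, the GC and length offset put Pik3cd at 0.28 and Pik3r2 at -0.11, and with library totals Pik3r4 was at 0.16 and Pik3c2a at -0.20 (edgeR adjusted p = 0.337 and 0.346).

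Of 16 kinases around AKT and mTOR, 3 rose and 1 fell, 25% against 39.8% over all genes. Sgk1, a kinase related to AKT that also phosphorylates FOXO, had 18.4 to 31.4 CPM in PF livers and 25.8 to 167 CPM in AF livers, where 6 of 7 livers lay above the PF range (log2 fold change 2.03, SE 0.353, edgeR adjusted p = 0.000928). AF 6 was the liver that stayed within it. Rictor, the defining subunit of the mTORC2 kinase that phosphorylates AKT, fell with -0.33 (edgeR adjusted p = 0.0147) and was at 0.042 with library totals.

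Of 17 brakes on the pathway, 5 rose and 5 fell, 58.8% against 39.8% over all genes. Trib3, a pseudokinase of the stress response that binds AKT, had 2.56, 3.16, 1.17, 2.01 and 3.76 CPM in PF 1 to 5. In AF livers it ran from 19.2 through a median of 42.5 to 106 CPM, above PF in every liver (log2 fold change 4.22, SE 0.443, edgeR adjusted p = 2.92e-05). Grb10 and Grb14, a pair of adaptors that bind the receptor and block it, went apart. Grb10 rose (1.28, edgeR adjusted p = 0.00955), and Grb14 fell from 62.8 ± 4.95 CPM in PF (SD, n = 5) to 38.0 ± 3.40 in AF (SD, n = 7) with no overlap (-0.72, edgeR adjusted p = 5.11e-05). Tsc1, part of the complex that holds mTORC1 in check, fell with -0.69 (edgeR adjusted p = 0.000103). Ptpn1, the phosphatase PTP1B that acts on the receptor, rose with 0.38 (edgeR adjusted p = 0.0218) but was at 0.020 with the GC and length offset and lost its call without PF 2 or PF 5 (edgeR adjusted p = 0.0609 and 0.0573). Socs3, a cytokine-induced inhibitor of the receptor substrates, had a log2 fold change of -0.73 with an SE of 0.525 (edgeR adjusted p = 0.278). Single livers moved Socs3, to -1.23 without AF 6 (edgeR adjusted p = 0.0375) and to -0.47 without PF 2.

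Of 16 FOXO partners and regulators, 3 rose and 1 fell, the same 25%. Ywhah, a 14-3-3 protein of the kind that holds phosphorylated FOXO in the cytoplasm, rose from 58.0 ± 1.66 CPM in PF (SD, n = 5) to 93.1 ± 14.4 in AF (SD, n = 7) with no overlap (log2 fold change 0.68, edgeR adjusted p = 0.000506). Mdm2, a ubiquitin ligase for p53 and FOXO proteins, rose with 0.52 (edgeR adjusted p = 0.00604). Sirt1, a deacetylase of FOXO factors, fell with -0.68 and all AF livers below PF (edgeR adjusted p = 0.00433), and was at -0.32 with library totals (edgeR adjusted p = 0.137).

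Of 18 FOXO target genes of liver, 4 fell and none rose, 22.2% against the 39.8% of all tested genes, and the median log2 fold change was -0.25. DESeq2 called 6 of them, against 43.9% of all genes. Pdk4 went the other way without passing in edgeR (log2 fold change 1.23, edgeR adjusted p = 0.0547), with 3 AF livers above the PF range. The largest falls were those of Ppargc1a, the coactivator of gluconeogenesis and mitochondrial genes, and of Bcl6, a repressor of lipid genes. Ppargc1a had 11.9 to 29.1 CPM in PF livers and 4.65 to 6.32 CPM in AF livers (log2 fold change -1.89, SE 0.201, edgeR adjusted p = 3.29e-05). Bcl6 had -1.32 (edgeR adjusted p = 0.00913), although PF 4, at 8.97 CPM, lay below all AF livers. The genes of glucose output, G6pc and Pck1, did not pass in the edgeR fit of all livers with TMM factors. G6pc, the last enzyme of glucose release, had 508 ± 37.6 CPM in PF (SD, n = 5) and 346 ± 165 in AF (SD, n = 7), with a log2 fold change of -0.55 (edgeR adjusted p = 0.152). Without AF 2, its highest liver at 622 CPM, G6pc was at -0.78 and passed (edgeR adjusted p = 0.0358), and with library totals it was at -0.19. Pck1, a rate-limiting enzyme of gluconeogenesis, had -0.86 (edgeR adjusted p = 0.0715) and passed in 5 of the 21 alternative fits. These were DESeq2 (-0.88, adjusted p = 0.0307), the GC and length offset in edgeR (-1.08, adjusted p = 0.0292), the replicate block in edgeR (-1.19, adjusted p = 0.0323), and the edgeR fits without AF 7 (adjusted p = 0.0482) and without PF 3 (adjusted p = 0.0328), the PF liver lowest in Pck1.

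Igfbp1, the secreted binding protein whose promoter is shown above, rested on 1 liver. It had 173, 207, 77.4, 239 and 261 CPM in PF 1 to 5 and 851 CPM in AF 1, while the other AF livers lay between 51.9 and 210. With all livers it had a log2 fold change of 0.15 (edgeR adjusted p = 0.874), and without AF 1 it was -0.85 (edgeR adjusted p = 0.108).

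**Figure D5:**
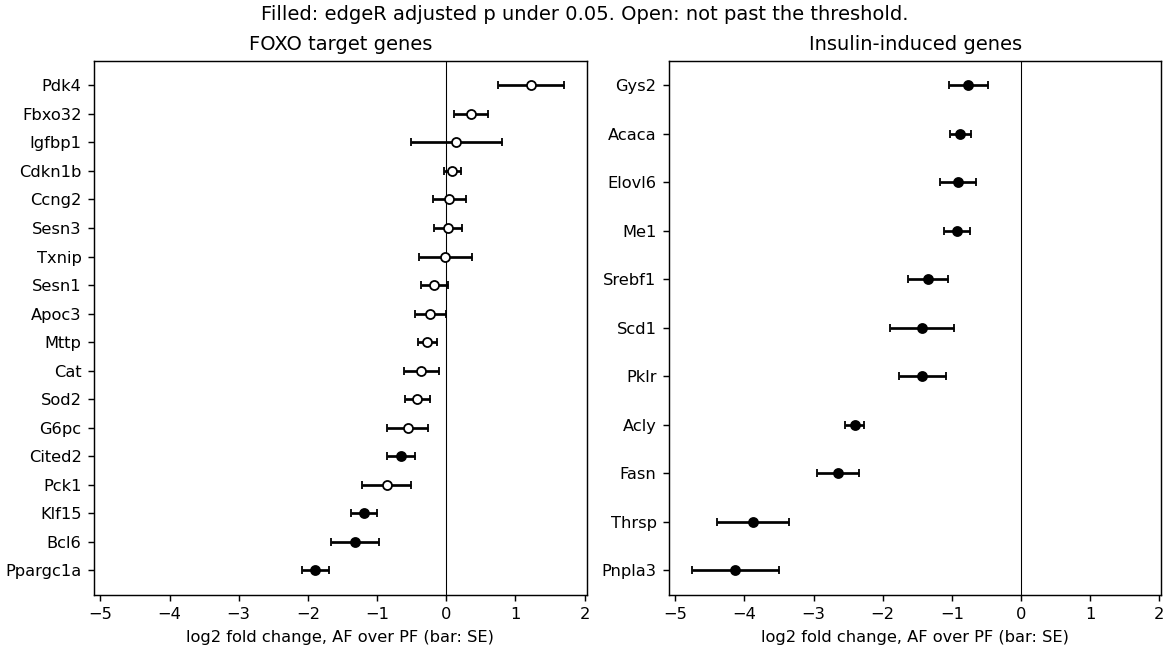
Log2 fold changes of AF over PF with standard errors for 18 FOXO target genes and 11 of the 12 insulin-induced genes of liver, with filled points for edgeR adjusted p under the threshold. All 11 insulin-induced genes shown are filled and left of 0, while 4 of the 18 FOXO targets are.

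All 12 listed genes that insulin is known to raise in liver fell, against 17.8% of tested genes lower, with a median log2 fold change of -1.38. Their count ranged from 10 to 12 over the alternative fits. Srebf1, whose product SREBP-1c drives fat synthesis, had 74.5 to 174 CPM in PF livers and 19.2 to 73.1 CPM in AF livers (-1.34, SE 0.291, edgeR adjusted p = 0.00339). No AF liver reached the lowest PF liver. The most negative values were those of Pnpla3, a lipid droplet lipase (-4.13, edgeR adjusted p = 0.000414), and Thrsp, a promoter of lipogenesis (-3.88, edgeR adjusted p = 0.000161). Thrsp went from 362 to 804 CPM in PF to 6.53 to 104 in AF. Pnpla3 had only 1 to 12 reads per AF liver (0.0372 to 0.375 CPM), so that the size of its fall is uncertain, and at most 11 CPM in any liver. The liver with that value was PF 3, which was the highest PF liver in 6 of these 12 genes, Srebf1 among them, and without PF 3 the Pnpla3 value was -3.17.

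Across the 12 livers, each changed member was set beside the genes most like it in their deviations from the group means, out of 8173 genes whose log2 CPM averaged 3 or more. These are descriptions with no p, since each gene was picked as the highest of so many, and they share the depth and scaling of the libraries. Foxo1 was most like Lpin1, the lipin 1 phosphatidate phosphatase and coactivator (r 0.953, rho 0.937), and like Lurap1l (r 0.902). Without PF 3 and AF 6, the 2 livers where Foxo1 was farthest from its median, r was 0.898 with Lpin1 and 0.757 with Lurap1l. Lpin1 itself fell from 69.3 to 643 CPM in PF to 17.7 to 75.2 in AF (log2 fold change -3.17, edgeR adjusted p = 0.000327), with PF 3 the lowest PF liver and AF 6 the highest AF liver, as for Foxo1. Foxo3 was most like Maf1 (r 0.884) and Rangap1 (r 0.861), and these values were 0.703 and 0.697 without PF 3 and AF 1. Rangap1 was also among the 2 most like Irs2 (r 0.844), after Dnajb1 (r 0.886). Insr was most like Ppm1l (r 0.953) and F5 (r 0.941), Pik3r1 like Atp6v0a2 (r 0.895) and Tulp4 (r 0.851), and Akt1 like Cyth1 (r 0.941) and Polr2c (r 0.930).

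Markers of several cell types also changed, against 22.0% of all genes higher and 17.8% lower. Of 7 hepatocyte markers tested none rose and 2 fell, and their summed level was 97390 to 138300 CPM in PF and 52100 to 101800 in AF. Kupffer cell markers rose in 5 of 6 (616 to 886 CPM in PF, 891 to 2782 in AF), recruited macrophage markers in 5 of 6 (235 to 563 and 539 to 2193), stellate cell and fibroblast markers in 6 of 8 (188 to 481 and 404 to 962) and bile duct markers in 4 of 4 tested (3.25 to 5.33 and 5.25 to 43.6). Of 4 adipose tissue markers only Cidec, which fatty hepatocytes also express, was tested, and it rose in all AF livers (log2 fold change 4.66, edgeR adjusted p = 0.000800, summed level of the list 0.246 to 0.778 CPM in PF and 1.62 to 33.9 in AF, highest in AF 6). Of sinusoidal endothelium markers 1 of 6 rose, and the 1 pancreas marker tested did not pass. Neutrophil and B cell markers had no gene past the edgeR threshold, and T cell markers had 1 of 6, which fell. Their part in the changes of Insr, Irs2, Pik3r1, Akt1, Foxo1, Foxo3 and the listed genes was not tested.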

How the data were processed

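The authors sequenced polyA RNA of 12 mouse livers with a stranded kit. Per their processing notes, reads were checked with FastQC 0.10.1, aligned to GRCm38 with TopHat2 2.0.13 and counted with HTSeq 0.10.0. The deposited values are raw read counts per Ensembl gene, and the annotation and strand setting are not given in the sources used here. Columns were assigned by the group and number in their names. GENCODE M21 named 54165 of 54232 IDs.

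Counts were analysed in R 4.3.3 with edgeR 4.0.16: TMM factors, filterByExpr by group (14168 genes), the quasi-likelihood test between PF and AF livers with no covariate, and Benjamini-Hochberg adjustment over all genes tested with a threshold of 0.05. The study's own test, Cuffdiff2, needs reads and was not run. CPM are read counts per 1000000 of the TMM-scaled library. Ratios used counts plus 0.5 and an exact two-sided permutation test over all 792 splits. Depth was 24129900 to 30578639 counts per library, and tests measure the spread between mice. Tested on simulated data of 14051 genes, edgeR recovered 190 of 200 changed genes with 11 false calls. Recovery was not tested on data with as broad a difference as in the livers, where 39.8% of tested genes passed. With a simulated GC trend and no true change edgeR made 1670 false calls of 14021 genes without the offset and 0 of 14010 with it. That trend was smooth in GC content, the form that the offset fits, so that its removal was fixed in advance. Whether the offset also takes out true changes of GC-rich genes such as Akt1 was not tested. Alternatives were DESeq2 1.42.0, limma-voom 3.58.1, RLE, upper-quartile and plain library scaling, filters of 1 count in any library or a mean of 10, a replicate block, the GC and length offset (a spline over 99.92% of tested genes) and leaving out each liver. The offset for the ratios was added after seeing the data.

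The members and gene lists were chosen with earlier results of these data known. Beside the members, the text names, per list, the 2 most changed genes in each direction past the threshold and 10 pathway genes regardless of their values, and the 2 genes most like each changed member. Some genes that this rule takes in are not reported here. Klf15, Igf1r, Cidec, Pdk4 and Ide were named after their values were seen. Promoter sequences are RefSeq's (GRCm38.p6). No pair of libraries was a repeat: the lowest mean chi-square per gene over the 31 pairs within groups was 21.9.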

Additional observations from a re-analysis of the deposited data

Results flagged for a closer look

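Foxo3 in PF 3 was at 41.4 CPM, with the nearest other PF liver at 66.7 CPM. This gap, divided by the whole PF range, was 0.767, above the limit of 0.71 that Dixon's test sets for 5 samples. Of 26 groups of livers tested over the members and ratios, this was the only one past its limit, and chance alone gives about 1.3 in 26. Without PF 3 the log2 fold change of Foxo3 was -1.06, against -0.93 with it.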

How the results depend on the processing

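Foxo1, Foxo3 and Irs1 kept their direction and their side of the threshold in all 21 alternative fits, with Irs1 between 0.14 and 0.64. Plain library totals gave Insr -0.15, Irs2 -0.38 and Pik3r1 -0.31, no longer past the threshold, Pik3ca 0.39, now past it, and Akt2 0.18, with the sign turned. In this fit the median of all genes was shifted. With the GC and length offset Akt1 was at 0.061 and lost its call, Akt2 at -0.48 gained one, and the Irs1 to Irs2 and Foxo1 to Foxo3 ratios (1.12 and 0.34) passed. Limma-voom gave Irs2 -0.68 (adjusted p = 0.0525). Leaving out 1 liver at a time gave Irs2 -0.95 to -0.66 and Pik3ca -0.015 to 0.050, with Pik3ca below 0 without AF 2 (-0.0050), AF 5 (-0.0049) or PF 3 (the lowest). Among other genes, Igfbp1 turned to -0.54 with limma-voom, -0.34 with the replicate block, -0.057 without PF 3 and -0.85 without AF 1 (the lowest of a range up to 0.32 when 1 liver is left out). Pik3r2 turned to -0.11 with the offset, and Pik3r4 (0.16) and Rictor (0.042) with library totals. The causes were not tested.

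The replicate numbers showed no clear pairing of the livers: same-numbered deviations had correlations of -0.0749 to 0.117. Correlations in 5 pairs cannot decide whether the numbers follow the pair-feeding, and the sample titles do not say. A replicate block over the 5 shared numbers also takes AF 6 and AF 7, which have no PF partner, out of the comparison, so that the effects of the block and of leaving out these livers cannot be told apart. It gave Akt2 -0.31 (edgeR adjusted p = 0.0222), Socs3 -1.30 (edgeR adjusted p = 0.0329), 7 FOXO targets called against 4, and 6335 genes in all (44.7%, against 39.8%). The paired ratios were 0.73 for Akt1 to Akt2 and -0.74 for Pik3r1 to Pik3ca, each with an adjusted exact permutation p of 0.0833, where 5 pairs cannot go below an unadjusted 0.0625.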

Other observations

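Klf15, a FOXO target and regulator of amino acid use, fell from 86.5 ± 23.1 CPM in PF (SD, n = 5) to 38.0 ± 8.37 in AF (SD, n = 7), with all AF livers below PF (edgeR adjusted p = 0.000597). PF 3 was its lowest PF liver. Over the 18 FOXO targets PF 3 was the lowest PF liver in 5 genes, as was PF 1.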
